A study of Homo sapiens with 6 samples.

Results

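ZNF222, ZNF461, ZNF547, ZNF583, ZNF610 and ZNF773 are protein-coding zinc finger genes on the long arm of chromosome 19, in band 19q13. They were chosen by symbol from the gene tables of a knockdown experiment, and all 6 were found in every library, among 771 named genes and 1113 entries in all. The experiment used ES2, an established human cell line that the labels class as epithelial ovarian cancer. Cells labelled as control (titles ASO-C) gave 3 libraries, written here as control ASO, and cells labelled as RUNX1-IT1 knockdown (titles ASO-IT1) gave 3, written as RUNX1-IT1 ASO. An ASO is an antisense oligonucleotide, a short synthetic strand that pairs with a chosen RNA, and RUNX1-IT1 is a long non-coding RNA gene within RUNX1. Both groups were grown in the same serum-supplemented RPMI-1640 medium. Dose, time after treatment and the sequences of the oligonucleotides are not given in the sources used here, and 1 cell line was studied. Nothing in the labels says that replicates were separate cultures, so p-values measure only the spread between these libraries, which may be technical.

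Genes named ZNF mostly encode DNA-binding proteins built from repeated C2H2 fingers, each a short fold held by a zinc ion. Many of those on chromosome 19 also carry a KRAB domain, which recruits the corepressor TRIM28 and the histone methyltransferase SETDB1 to silence the bound DNA, often transposable elements. They arose by repeated local duplication, stand in clusters, and are known for modest transcript levels. ZNF461 is also called GIOT1, after gonadotropin-inducible ovary transcription repressor, and ZNF773 is also called ZNF419B, after its neighbour and relative ZNF419.

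On GRCh38 (GENCODE release 29), ZNF461 lies on the minus strand of chromosome 19 from 36637192 to 36666853. The other 5 lie on its plus strand. ZNF222 spans 44025342 to 44033112, ZNF610 spans 52336245 to 52367778, and ZNF583 spans 56397966 to 56436035. ZNF547 spans 57363477 to 57379565 and ZNF773 spans 57499915 to 57518404. ZNF547 and ZNF773 start 136 kb apart and ZNF583 starts 966 kb before ZNF547, whereas the gaps between the starts of the other neighbours run from 4.06 to 8.31 Mb. These genes therefore come from several parts of 19q13 and not from 1 cluster.

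The sequences around the starts of these genes are shown because 4 of the genes hold a common short motif there. RefSeq promoters (GRCh38.p14, 250 bases before to 50 after the RefSeq start) were found for 5 of the 6 genes, with 2 starts for ZNF583. Read 5′ to 3′ on the strand of the gene, with CTTCCGG, the core recognised by ETS-family factors, or its reverse complement in capitals, the 29-base windows around each match are as follows.
ZNF461, chr19:36666819-36666847, minus strand: gtccacagctaCTTCCGGtaggagcctcg
ZNF222, chr19:44025310-44025338, plus strand: aggctcgagcaCTTCCGGtccccaactgt
ZNF547, chr19:57363413-57363441, plus strand: ggagggcgggaCTTCCGGcgtcctcttgc
ZNF773, chr19:57499858-57499886, plus strand: aatgggcgggaCTTCCGGcgtctcccctc
ZNF773, chr19:57499914-57499942, plus strand: aactcagcttgCCGGAAGctggttgttcg
In ZNF222, ZNF547 and ZNF773 the motif began 58, 127 and 69 bases before the RefSeq start, with the second match of ZNF773 beginning 13 bases before it. In ZNF461 it began 1 base after the start. Neither promoter of ZNF583 held it.

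The motif was chosen after the sequences were seen. CTTCCGG was present in 10.3% of 35116 promoters of the same length, on either strand. That share counts promoters, whereas the next shares count a gene once if any of its promoters held the motif, so the units differ. Among 151 zinc finger family genes of the chromosome 19 long arm that have a promoter in the table, 76 (50.3%) held it. Of 485 listed genes with a promoter, 33 (6.8%) held it. The motif is thus common among zinc finger genes of this arm whether or not they are listed, and a match is a description of the letters only.

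ZNF547 and ZNF773 shared a longer run, GGGCGGGACTTCCGGCGTC, which contains a GC box (GGGCGG) and the CTTCCGG core. It was picked after the sequences were seen, as the longest run shared by 2 of these promoters, so its presence in both was fixed by that choice. This 19-base run was found in 6 of the 35116 promoters, those of ZNF547, ZNF773, ZNF419, ZNF599, TRAPPC2B, which overlaps ZNF547, and a locus without a gene name. Counted per gene, 4 of the 151 family genes of the arm (2.65%) and 2 of the 485 listed genes (0.412%) held it. Every other pair of these genes shared at most 11 bases in a row. The upstream stretches of this pair, up to the base before the GENCODE start, are given so that the run can be seen in place.
ZNF547, chr19:57363301-57363476, plus strand: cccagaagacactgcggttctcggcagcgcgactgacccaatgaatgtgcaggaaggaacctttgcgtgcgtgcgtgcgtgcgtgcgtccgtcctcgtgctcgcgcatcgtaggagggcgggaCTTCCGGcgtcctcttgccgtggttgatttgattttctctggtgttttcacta
ZNF773, chr19:57499688-57499914, plus strand: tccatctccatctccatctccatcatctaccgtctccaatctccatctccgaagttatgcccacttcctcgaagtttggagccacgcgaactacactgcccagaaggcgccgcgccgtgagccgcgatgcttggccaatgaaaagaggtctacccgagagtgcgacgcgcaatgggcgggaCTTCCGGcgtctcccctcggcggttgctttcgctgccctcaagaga

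Of the motifs listed for the search, TGTGGT, the RUNX core, was in the promoter of ZNF222 and in 13.1% of all promoters. TGACTCA, the AP-1 site, was also in ZNF222 and in 4.95% of all promoters. TGACGTCA, the cyclic AMP response element, was in ZNF547 and in 1.85% of all promoters. GGGCGG was in ZNF547, ZNF583 and ZNF773 (45.0% of all promoters), and CCAAT was in ZNF547 and ZNF773 (34.6%). CACGTG (the E-box), AAGATGG (the YY1 core) and TATAAA (the TATA box) were in none of these promoters, against 7.26%, 5.84% and 11.5% of all promoters. All were searched on both strands. Counted per gene among the 151 family genes of the arm, the shares were 17.2% for TGTGGT, 3.97% for TGACTCA and 2.65% for TGACGTCA. They were 64.9% for GGGCGG, 43.7% for CCAAT, 7.28% for CACGTG, 9.93% for AAGATGG and 3.31% for TATAAA.

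Only a slice of each library was tabulated. In CPM, the read count divided by library size, the entries of a control ASO library summed to 10175 to 11070, and those of a RUNX1-IT1 ASO library to 3628 to 3894. The spacing of low values puts the depth at 17100000 to 21200000 reads per library, with 1 read worth 0.0471 to 0.0586 CPM. The smallest ratio of group means among the entries was 1.99, and that was the single entry under 2, so listed genes appear to have been selected for a difference between these same libraries. A fall of a listed gene is therefore not independent evidence, and the count of genes that fell must be read against a table in which 1081 entries were lower and 32 higher. RUNX1 and RUNX1-IT1 are not among the named genes, so the target was not analysed here. Of 11 ovarian and epithelial markers 1 was listed, PAX8, a transcription factor of Müllerian epithelium, at 7.16 ± 0.733 CPM under the control ASO and 2.98 ± 0.602 CPM under the RUNX1-IT1 ASO (SD, n = 3 each). It was 2.40-fold lower and called in limma, and stood at 0.19 on the log2 scale after rescaling to equal listed totals (limma, adjusted p = 0.367). Of 5 leukocyte markers 1 was listed, ITGAM, which was too low to be tested, at 1.72 ± 0.113 and 0.127 ± 0.0792 CPM. No endothelial or fibroblast marker was listed, and an unlisted gene may have any level. The part of other cells in the results was not tested.

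On the deposited CPM scale all 6 genes were lower in the RUNX1-IT1 ASO libraries, by 2.03-fold to 3.11-fold between group means, and 4 of them change sign, uncalled, when libraries are rescaled to equal listed totals. ZNF610 and ZNF222 had the largest folds, and ZNF461 and ZNF547 the smallest. In limma on log2(CPM + 1), all 6 passed an adjusted p of 0.05, as did 97.5% of the 489 tested genes in that direction (477 lower and 10 higher), so the count of 6 of 6 is near the background of the table. ZNF610 and ZNF461 reached the mean of 1 CPM needed for testing only through the control ASO group, where they were high. For all 6, every RUNX1-IT1 ASO library lay below every control ASO library, as it did for 97.1% of tested genes. Their median change was -0.84, against -1.11 for all tested genes. The median fold was 2.33 for these genes and 2.99 for the tested genes that were lower. In bulk RNA, fewer cells that express a gene and less RNA per cell cannot be told apart.

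**Figure D1:**
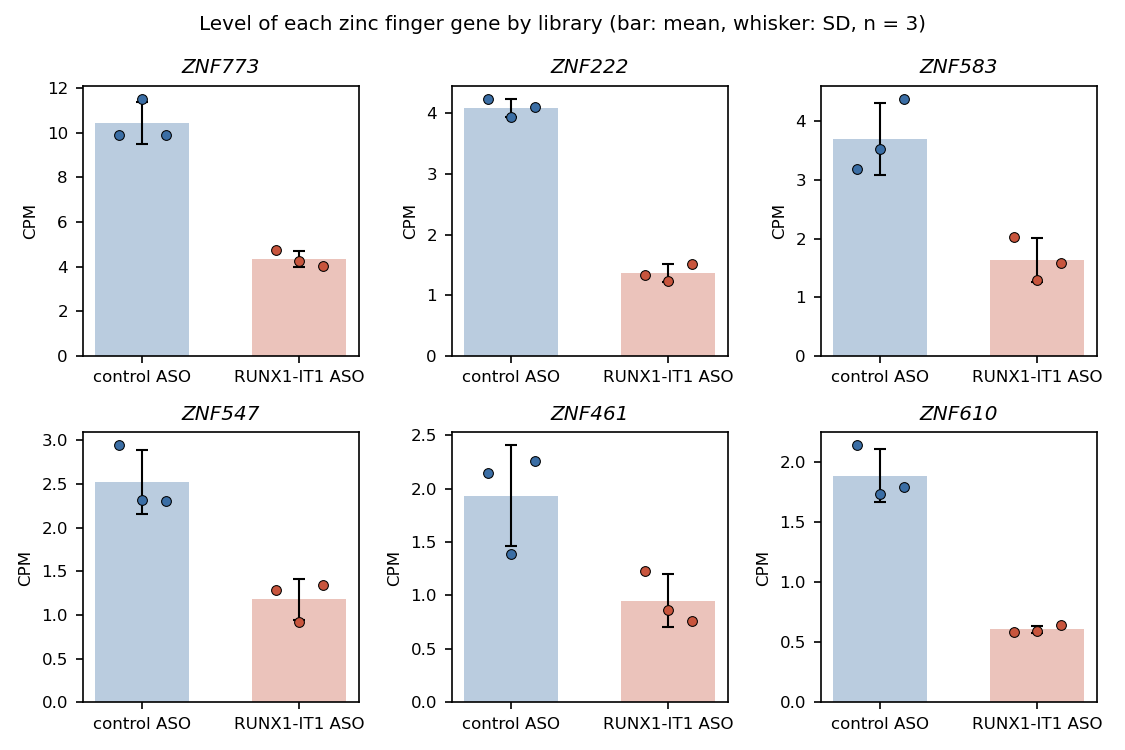
CPM of each gene (vertical axis, linear, from 0) in the control ASO and RUNX1-IT1 ASO libraries; points are libraries, bars are means and whiskers are SD (n = 3). On this scale, in each of the 6 genes every RUNX1-IT1 ASO point lies below every control ASO point, most narrowly for ZNF461 (1.39 against 1.23 CPM).

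ZNF773 had the highest read level. It stood at 9.915, 11.523 and 9.896 CPM in control ASO replicates 1, 2 and 3 and at 4.76, 4.248 and 4.042 CPM in the same order under the RUNX1-IT1 ASO. The groups were far apart, with the lowest control library above 2 times the highest RUNX1-IT1 ASO library. The means were 10.4 ± 0.934 and 4.35 ± 0.37 CPM, 2.40-fold lower. On the log2 scale it fell by 1.10 ± 0.11 (limma SE, adjusted p = 7.29e-07). Of its annotated transcript sequence, 8.69% of 50-base words also occur in ZNF419, so some reads may belong to that relative.

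ZNF222 read 4.235, 3.938 and 4.1 CPM in the control ASO libraries and 1.337, 1.237 and 1.523 CPM in the RUNX1-IT1 ASO libraries. Both groups were tight and did not overlap. The means were 4.09 ± 0.149 and 1.37 ± 0.145 CPM, 3.00-fold lower, and the log2 change was -1.11 ± 0.12 (limma, adjusted p = 1.35e-06). This was the largest change of the 6 on that scale, but 249 of the 489 tested genes fell further. A longer protein-coding gene model on the same strand overlaps ZNF222 and holds 14.5% of its 50-base words, so reads there could be assigned to either.

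ZNF583 read 3.189, 3.532 and 4.383 CPM in the control ASO libraries and 2.032, 1.29 and 1.582 CPM in the RUNX1-IT1 ASO libraries. Control replicate 3 was the highest and RUNX1-IT1 ASO replicate 1 was the highest of its group, still below all controls. The means were 3.70 ± 0.615 and 1.63 ± 0.374 CPM, 2.26-fold lower (log2 change -0.84 ± 0.15, limma adjusted p = 9.95e-05). Its GENCODE start lies upstream of both RefSeq starts, where it overlaps the RNA gene ZNF582-AS1 over 1.74% of its 50-base words.

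ZNF547 read 2.94, 2.316 and 2.309 CPM in the control ASO libraries and 1.283, 0.914 and 1.347 CPM in the RUNX1-IT1 ASO libraries. Here too the groups did not overlap. The means were 2.52 ± 0.362 and 1.18 ± 0.234 CPM, 2.13-fold lower (log2 change -0.69 ± 0.14, limma adjusted p = 0.000284). TRAPPC2B, a gene of the trafficking complex TRAPP, lies within its first part on the same strand, and a longer protein-coding model overlaps it as well. TRAPPC2B holds 4.07% of its 50-base words and the longer model 7.16%.

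ZNF461, the GIOT1 gene, read 2.142, 1.39 and 2.262 CPM in the control ASO libraries and 1.23, 0.86 and 0.762 CPM in the RUNX1-IT1 ASO libraries. Control replicate 2 was low, at 24 implied reads, and close to RUNX1-IT1 ASO replicate 1, at 23. The means were 1.93 ± 0.473 and 0.951 ± 0.247 CPM, 2.03-fold lower (log2 change -0.58 ± 0.15, limma adjusted p = 0.00237). With a pseudocount of 0.1 CPM the change was -0.95 ± 0.26 (limma, adjusted p = 0.00379). It had the smallest change of the 6 with either pseudocount, and 95.5% of tested genes had a larger fall at 1 CPM.

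ZNF610 was the lowest in reads, at 2.142, 1.737 and 1.791 CPM in the control ASO libraries and 0.588, 0.591 and 0.644 CPM in the RUNX1-IT1 ASO libraries. The latter correspond to 11 implied reads in each of the 3 libraries. The means were 1.89 ± 0.22 and 0.608 ± 0.0315 CPM, 3.11-fold lower (log2 change -0.84 ± 0.12, limma adjusted p = 1.8e-05). The pseudocount of 1 CPM holds down the change of such low genes. With a pseudocount of 0.1 CPM, ZNF610 stood at -1.49 ± 0.23 (limma, adjusted p = 5.53e-05), next to ZNF222 at -1.52 ± 0.17 and beyond ZNF583 at -1.14 ± 0.21. A gene on the opposite strand overlaps its span. Of the 50-base words of ZNF610, 0.661% occur in another gene, and the same 0.661% in genes outside that overlap. No word was thus shared with the overlapping gene alone. The strand setting of the counting is not given.

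Counting error alone is large at these depths, and the replicate spread fell on both sides of it. Implied reads are less certain in the control ASO libraries, whose smallest values above 0 lay at 2 to 5 steps and not at 1, so their counting errors are approximate. For ZNF610 in the RUNX1-IT1 ASO group the coefficient of variation between libraries was 5.18%, where counting error at its mean of implied reads is 30.2%. For ZNF222 in the control ASO group the values were 3.63% and 11.2%. For ZNF461 the control spread of 24.5% was above a counting error of 16.2%, and the RUNX1-IT1 ASO spread of 26.0% was near a counting error of 24.0%. The SD of ZNF610 in the RUNX1-IT1 ASO group was thus smaller than its counting error, and so was that of ZNF222 in the control ASO group if the implied reads hold. limma, which shares the spread across genes, gave standard errors of 0.12 for both.

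Scaling by length changed the order of the genes. Per kilobase of annotated exon, control ASO means were 2.04 ± 0.0742 CPM per kb for ZNF222 and 1.29 ± 0.116 for ZNF773, whose annotated exons span 8073 bases against 2003 for ZNF222. ZNF547 followed at 0.707 ± 0.102 and ZNF610 at 0.533 ± 0.062 CPM per kb (SD, n = 3). ZNF461 (0.459 ± 0.112) and ZNF583 (0.459 ± 0.0763) came last. The libraries of ZNF222, ZNF773, ZNF547 and ZNF610 did not overlap from 1 gene to the next in this order, whereas ZNF610, ZNF461 and ZNF583 did.

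In the RUNX1-IT1 ASO group ZNF222 (0.682 ± 0.0725 CPM per kb) and ZNF773 (0.539 ± 0.0458) kept the first places without overlap. ZNF547 was at 0.331 ± 0.0655, overlapping ZNF461 at 0.226 ± 0.0587. ZNF583 was at 0.203 ± 0.0464 and ZNF610 at 0.171 ± 0.00888, again overlapping. The lengths are those of all GENCODE exons of a gene joined, and the isoforms present in ES2 cells are not known.

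**Figure D2:**
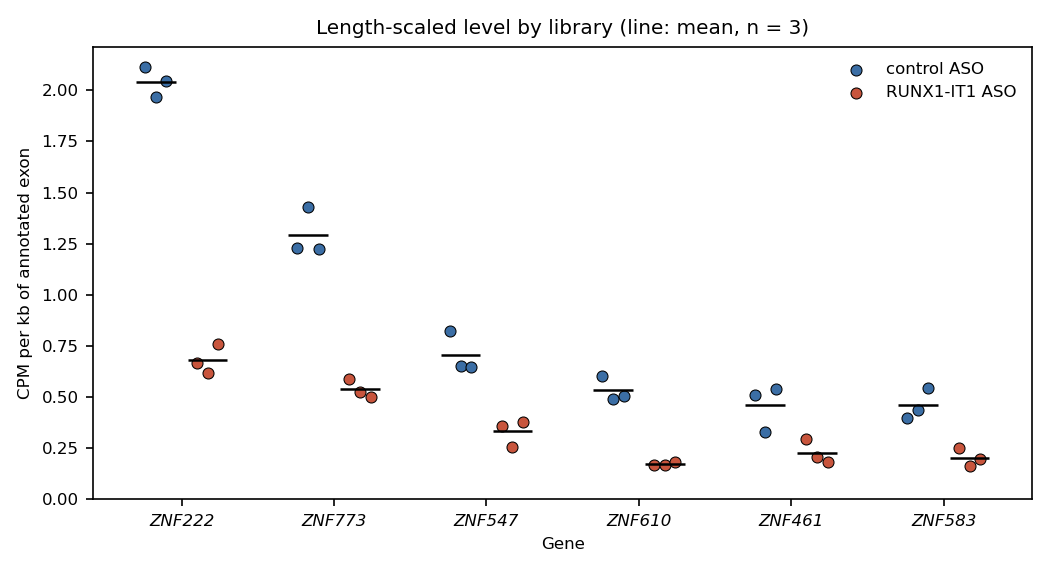
CPM per kilobase of annotated exon (vertical axis, linear) for the 6 genes, with 1 point per library and a line at each group mean (n = 3). ZNF222 is highest in both groups (2.04 and 0.682 CPM per kb), and the last 3 genes overlap one another.

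Together the 6 genes summed to between 24.4 and 24.7 CPM per control ASO library and between 9.14 and 11.2 CPM per RUNX1-IT1 ASO library, 24.6 ± 0.153 against 10.1 ± 1.06 CPM and 2.44-fold lower. Shares of this sum do not depend on how libraries are scaled. ZNF222 made up 16.1 to 17.2% of the sum in control ASO libraries and 11.9 to 15.4% in RUNX1-IT1 ASO libraries. ZNF610 made up 7.11 to 8.72% and 5.24 to 6.51%. For this pair the groups did not overlap, and for the other 4 they did, with ZNF773 at 40.0 to 47.2% and 40.8 to 46.5%. These shares are given without a test, since an exact permutation test of 3 libraries against 3 cannot give a two-sided p below 0.1.

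As a share of the listed entries the 6 genes were not lower. They were 0.223 to 0.24% of the listed CPM in control ASO libraries and 0.24 to 0.31% in RUNX1-IT1 ASO libraries. When the libraries were rescaled to equal listed totals, 0 of the 6 were called in limma, and 0 had an unadjusted p under 0.05. ZNF222 stood at -0.06 (adjusted p = 0.719) and ZNF610 at -0.07 (adjusted p = 0.677), still below 0. ZNF461 turned to 0.29, ZNF547 to 0.26, ZNF583 to 0.23 and ZNF773 to 0.21, with limma adjusted p from 0.213 to 0.307. In that fit 24.1% of tested genes were called lower (118) and 8.79% higher (43), and the median of all tested genes moved from -1.11 to -0.06. Rescaling centres a table in which nearly all entries fell, so a positive value says only that the gene fell less than the listed entries did as a sum. All 6 calls, and the direction for 4 of the 6, thus rest on the CPM scale as deposited.

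**Figure D3:**
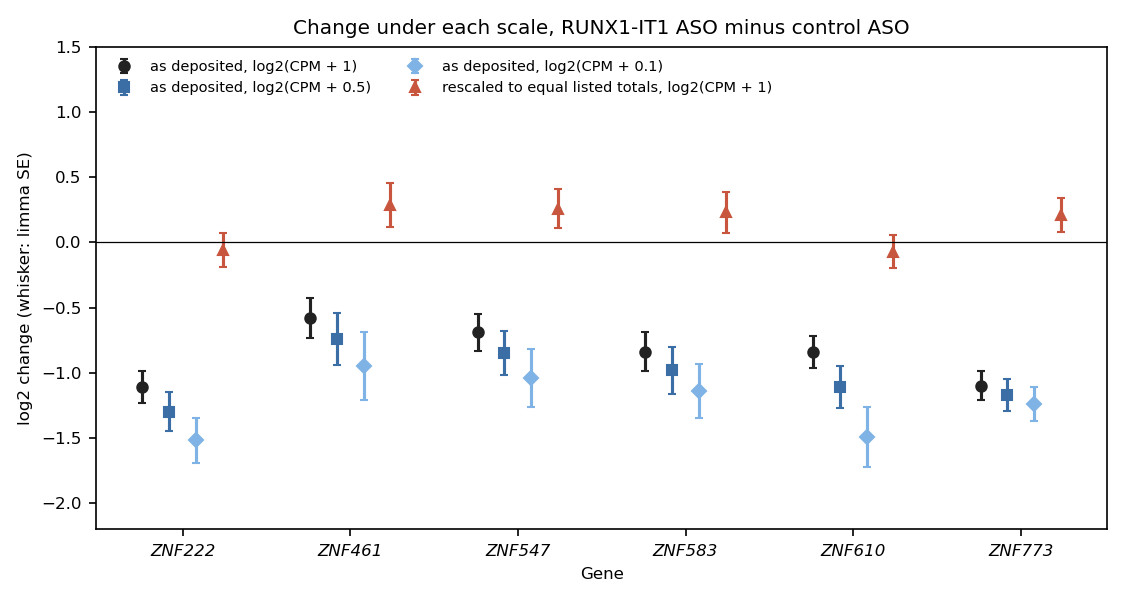
Log2 change of each gene (RUNX1-IT1 ASO minus control ASO, whiskers are limma SE) on the deposited scale with 3 pseudocounts and after rescaling to equal listed totals. On the deposited scale all values are below 0, and after rescaling they lie between -0.07 and 0.29.

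Of the zinc finger family by symbol (ZNF, ZFP, ZSCAN, ZKSCAN, ZIM or ZIK with a number), 20 genes were listed and 19 tested, and all 19 were called lower in limma, against 97.5% of tested genes, though with equal listed totals 15 of them were uncalled, 2 were lower and 2 were higher. GENCODE release 29 annotates 177 protein-coding family genes on the chromosome 19 long arm past position 32000000, and 7 of them were listed: the 6 described here and ZFP36. ZFP36 has the name form but encodes tristetraprolin, a CCCH-type protein that binds AU-rich mRNA and promotes its decay. It read 10.164, 9.96 and 11.263 CPM in control ASO libraries and 3.53, 4.947 and 5.565 CPM in RUNX1-IT1 ASO libraries, 2.24-fold lower (0.28 on the log2 scale after rescaling, limma adjusted p = 0.131). C2H2 genes under other names, such as the ZBTB or KLF families, and entries without a symbol were not screened, and the level of unlisted genes was not analysed here.

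Elsewhere on chromosome 19, 5 of 84 annotated family genes were listed, ZNF433, ZNF442, ZNF490, ZNF625 and ZNF763, with changes from -1.06 to -0.79 and a median of -0.85. The 6 genes of 19q13 ran from -1.11 to -0.58 with a median of -0.84. On other chromosomes 8 of 298 were listed and 7 tested, with a median of -0.97 and a range of -1.79 to -0.74. The median folds were 2.33, 2.37 and 2.19 for 19q13, the rest of chromosome 19 and other chromosomes. The difference between these groups of genes was not tested. None of 32 symbols searched for the KRAB repression machinery, TRIM28 and SETDB1 among them, was listed.

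**Figure D4:**
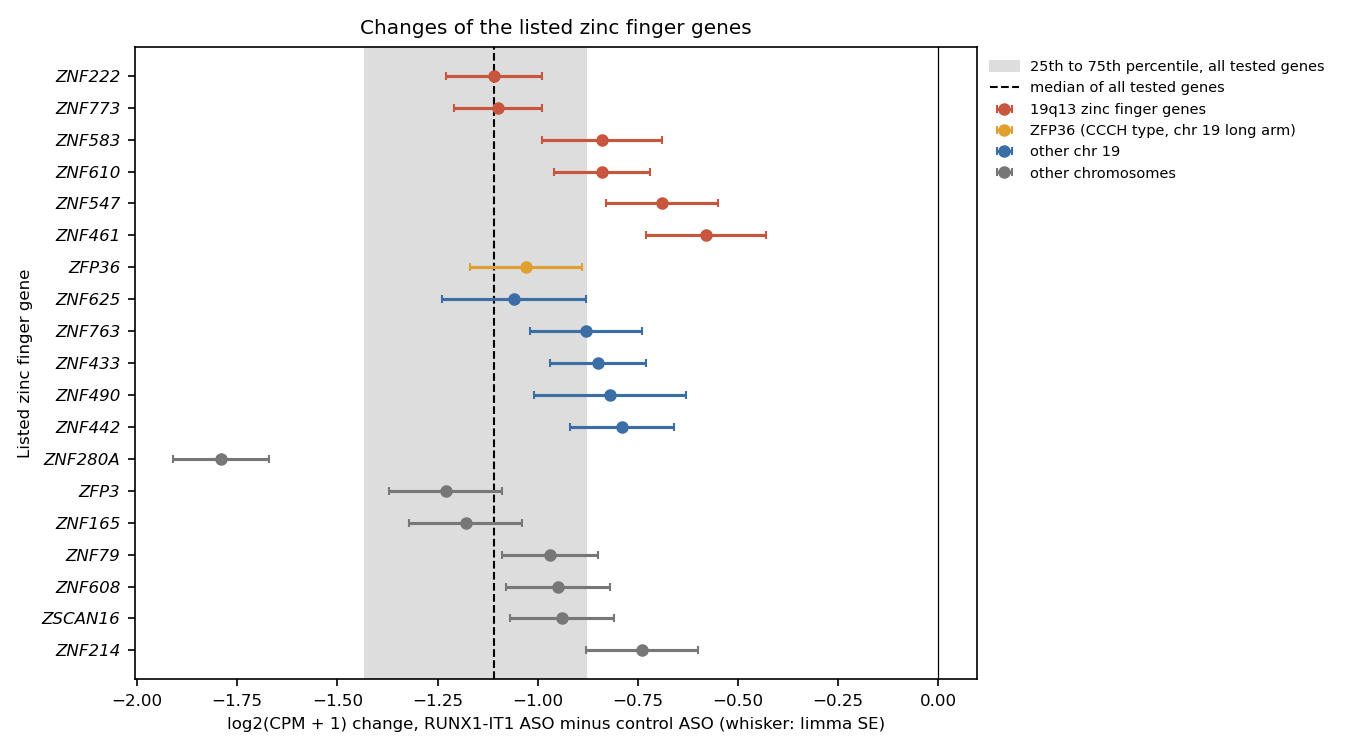
Log2(CPM + 1) change of the 19 tested zinc finger genes (points, whiskers are limma SE), coloured by place, with the median of all 489 tested genes (dashed, -1.11) and their 25th to 75th percentiles (grey, -1.43 to -0.88). On the deposited scale the 6 genes of 19q13 spread from -1.11 to -0.58, and 4 of them lie to the right of the grey band. ZNF610 is 1 of these 4, although its fold of 3.11 is above the median of 2.99 for tested genes that were lower. The pseudocount of 1 CPM holds down the change of such low genes, so place against the band depends on level too.

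Listed genes were counted within 1000000 bases of the start of each of the 6. None lay there for ZNF461 and ZNF610, and 5 did for ZNF222. Near ZNF222 the closest were SRRM5, 429 kb away, which went from 1.66 ± 0.279 to 0.584 ± 0.203 CPM (2.84-fold lower), and PINLYP, 449 kb away, which went from 4.88 ± 1.34 to 2.11 ± 0.659 CPM (2.31-fold lower). RFPL4A, 639 kb from ZNF583, went from 5.17 ± 0.268 to 0.259 ± 0.0405 CPM (20.0-fold lower), a far larger fold than that of ZNF583, and it has a near-identical copy with which reads can be shared. After rescaling SRRM5, PINLYP and RFPL4A stood at -0.01, 0.22 and -1.59 on the log2 scale. The other listed neighbours of ZNF583, ZNF547 and ZNF773 were each other.

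By Euclidean distance of log2(CPM + 1) over the 6 libraries, among 483 other tested genes, the profile nearest to ZNF583 was that of TAF1A-AS1 (distance 0.157), an antisense RNA gene. The nearest to ZNF610 was BCAN (0.169), which encodes the brain matrix proteoglycan brevican. CSF2, a cytokine gene, was nearest to ZNF222 (0.257), and OR6F1, an olfactory receptor gene, to ZNF547 (0.264). MKLN1-AS was nearest to ZNF773 (0.329) and the entry named MIR6773 to ZNF461 (0.344). The mean profile of the 6 was closest to RNU12 (0.278), PSG8-AS1 (0.281) and NOTCH3 (0.306). Among themselves ZNF222 and ZNF583 were closest (0.518) and ZNF610 and ZNF773 farthest apart (4.58). The measure weighs level as well as change and was given no test.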

How the data were processed

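RNA of 6 ES2 libraries was analysed, 3 per group by the titles. The values deposited by the authors are CPM, a unit read from the values, on GRCh38, with FastQC 0.11.9 and fastp 0.22.0 used, per the submitters' processing notes. Aligner, counter, annotation, strand setting and gene filter are not given in the sources used here. Entries without a symbol (342 of 1113, 9.35 to 10.4% of listed CPM) were left out of the tests. Low CPM values lay on steps, with 99.7 to 100.0% of values within 0.1 step of a whole number, which gave the depth and the implied reads. The smallest control values were 2 to 5 steps, so read counts were not treated as recovered there and the planned count test was not run. Counting errors cover counting only.

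The main test was limma 3.58.1 in R 4.3.3, with group as the only term and a trend of variance on level, run on log2(CPM + 1) of the 489 named genes that averaged 1 CPM or more. All 6 zinc finger genes passed that filter. ZNF610 and ZNF461 passed it only through the control ASO group, with RUNX1-IT1 ASO means of 0.608 and 0.951 CPM. The filter thus favoured a fall for this pair. With no filter both were still called lower (limma, adjusted p = 1.2e-05 and 0.00157). Adjusted p-values are Benjamini-Hochberg over the 489, two-sided, with a threshold of 0.05. The fit was also run on simulated data in which most genes were unchanged and the rest moved in both directions. That setting is unlike this table, where nearly all genes fell. The pseudocount understates changes of low genes. Errors of CPM are SD, with n = 3. Replicate pairs differed beyond sampling noise (chi-square per degree of freedom 1.97 to 2.79), so none was counted as 1 sample.

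The members and lists were chosen with earlier results of these data known. Named genes are the 6, listed genes of the fixed lists, other family genes of the arm, the 2 nearest listed neighbours of each, the nearest profile of each and the 3 nearest to their mean. Other family genes of chromosome 19 are named beside them, after their values were seen. Alternatives were other pseudocounts, filters, rescaling, a replicate block, keeping unnamed entries and leaving out each library. No protein table was used.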

Additional observations from a re-analysis of the deposited data

How the results depend on the processing

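Each of the 6 genes kept its fall and its call in limma without any 1 library, with a replicate block, with either other pseudocount, with no filter and with unnamed entries kept. Leaving out 1 library moved ZNF222 between -1.15 and -1.07, ZNF461 between -0.72 and -0.50, ZNF547 between -0.75 and -0.60, ZNF583 between -0.94 and -0.74, ZNF610 between -0.88 and -0.78 and ZNF773 between -1.15 and -1.03, with a highest limma adjusted p of 0.0163, for ZNF461. After rescaling to equal listed totals, ZNF222 (-0.06) and ZNF610 (-0.07) lost the call, ZNF461 (0.29), ZNF547 (0.26), ZNF583 (0.23) and ZNF773 (0.21) changed sign, 0 of 6 were called (limma, with 0 at an unadjusted p under 0.05), the median of the 6 was 0.22, and 118 tested genes were called lower and 43 higher. With a pseudocount of 0.1 or 0.5 CPM the median of the 6 was -1.19 or -1.04, and at 0.1 that of all tested genes was -1.50. With a mean of at least 2 CPM, 3 of the 6 remained in the test and all 3 were called, with a median of -1.10. Of these, ZNF222 and ZNF583 passed only through the control ASO group (RUNX1-IT1 ASO means of 1.37 and 1.63 CPM). Under that filter 298 genes were called lower and 1 higher, since fewer genes were tested. With no filter 750 were called lower and 19 higher, and with unnamed entries kept 20 were higher, since more were tested. With the replicate block 6 of 6 were called lower, with 478 lower and 10 higher over all tested genes. Deviations of libraries with the same number correlated at -0.24, -0.10 and -0.02, so the numbers were not taken to pair the libraries. The planned count test was not run. At 11 to 89 implied reads per gene in the RUNX1-IT1 ASO libraries, depth limits the comparison of these genes with one another.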
